A study of Macaca mulatta with 5 samples.

Results

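Chromatin loops and topologically associating domains (TADs, here called domains) of rhesus chromosomes 5, 17 and 18 were described in a saline and a morphine map of cortical neurons. These chromosomes are the counterparts of human chromosomes 4, 13 and 18, and every listed region on them was taken, with no filter on its values. They held 379 of the 5507 loops and 137 of the 1198 domains of the saline map, and 401 of the 8425 loops and 152 of the 1244 domains of the morphine map. In all, 1069 of 16374 listed regions belonged to the set. Chromosome 5 gave 540 of them, chromosome 17 gave 290 and chromosome 18 gave 239. The other 17 autosomes served as the reference. The label gene-poor was checked against a RefSeq gene table of another rhesus assembly (T2T-MMU8v2.0). Chromosome 17 had 3.39 protein-coding genes per Mb, chromosome 18 had 3.78 and chromosome 5 had 4.13, the 3 lowest values of the 20 autosomes. Chromosome 12 followed at 4.57, and chromosome 19 had the most at 21.3.

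The study asked how chronic morphine alters chromatin architecture in the rhesus monkey (Macaca mulatta). Hi-C, which crosslinks, cuts and religates chromatin so that sequenced pairs report loci lying close together, was run on neurons purified from the cortex. The morphine group was 2 male monkeys aged 3 to 4 years, injected under the skin 3 times daily over 90 days, with the dose stepped up from 3 to 15 mg/kg. The saline group was 2 males of the same age that received saline on the same schedule. The labels list 3 morphine and 2 saline libraries, so at least 1 monkey gave more than 1 library. Each deposited list carries the name of a group and was read as 1 map pooled over it. There is therefore no replicate check and no p-value for any difference between the maps. Intervals below are 95% intervals that describe counting error, or how loops, domains and boundaries vary within a map, and leave out the spread between monkeys. Sequencing depth per library is unknown. The pixels of the called loops held 119909 saline contacts and 239042 morphine contacts. Neuron markers could not be checked, because these files hold no expression values.

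In many mammalian loops, cohesin extrudes a chromatin fibre until it meets the DNA-binding protein CTCF, which leaves a focal contact between the anchors. Domains are stretches in which contacts are enriched relative to those across their edges, and these edges, the boundaries, are often occupied by CTCF and by active genes. Gene-poor chromosomes carry much late-replicating, inactive chromatin that tends to lie at the nuclear periphery. No anchor or domain below is assigned to a gene or printed as sequence, because the assembly of the positions is not known. The submitters' notes give hg19, but positions on chromosome 17 run past the end of that chromosome there. Positions are given as in the files, counted from 1.

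Loops were sparse on all 3 chromosomes. Density counts all loops of a chromosome, also those that lie beyond the domain lists. In the saline map, density over the length covered by the domain lists was 1.13 loops per Mb on chromosome 5 (0.985 to 1.30, Poisson interval), 1.06 on chromosome 17 (0.855 to 1.30) and 1.21 on chromosome 18 (0.957 to 1.51). In the morphine map it was 0.964 on chromosome 5 (0.827 to 1.12), 1.32 on chromosome 17 (1.09 to 1.58) and 1.67 on chromosome 18 (1.37 to 2.01). The other autosomes together had 2.29 saline loops per Mb (2.23 to 2.35) and 3.59 morphine loops per Mb (3.51 to 3.67). The 3 chromosomes thus held the lowest 3 places in both maps. The next autosome up was chromosome 12, with 1.27 saline loops per Mb (1.08 to 1.49) and 1.82 morphine loops per Mb (1.58 to 2.07). The saline intervals of chromosomes 5, 17, 18 and 12 overlapped, so their order was not resolved there. The morphine interval of chromosome 5 lay below those of chromosomes 18 and 12, and that of chromosome 18 overlapped that of chromosome 12. Loop density followed gene density over the autosomes as a whole, with a saline Spearman coefficient of 0.959 over 20 chromosomes and 0.936 over the 17 others alone. All chromosomes of a map share their libraries and depth, so this is a description of 1 map.

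**Figure D1:**
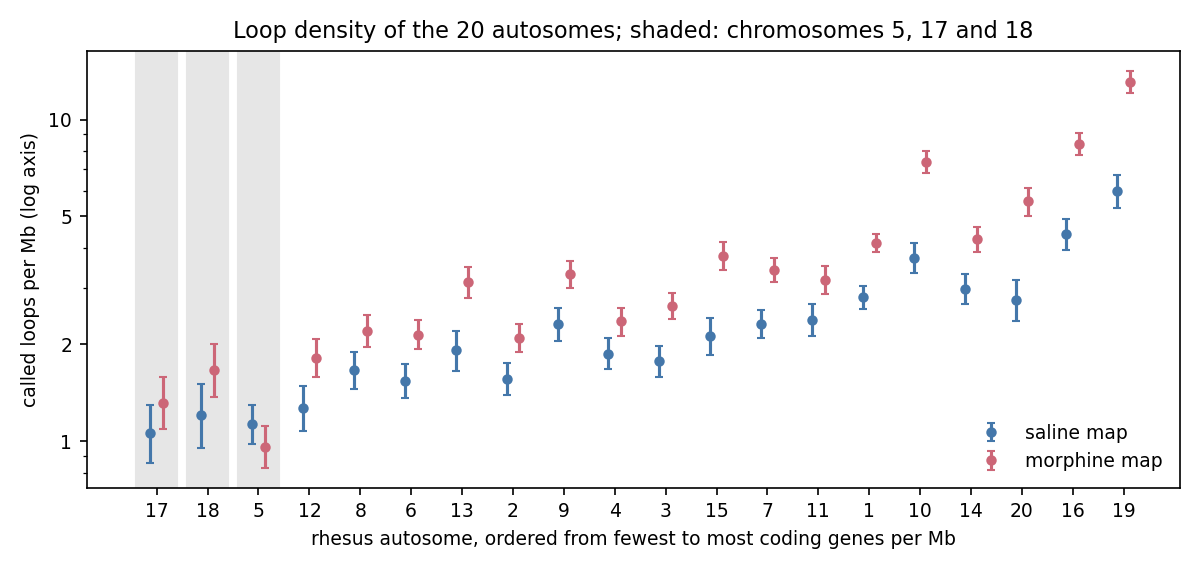
Called loops per Mb (log axis) on each of the 20 autosomes, ordered by protein-coding genes per Mb; blue points are the saline map, red points the morphine map, and bars are 95% Poisson intervals. The shaded chromosomes 17, 18 and 5 lie at the lower left, and chromosome 5 is the one autosome whose red point, at 0.964, is below its blue point, at 1.13.

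Loops on the 3 chromosomes were long. The median span, the distance between anchor midpoints, was 185 kb on chromosome 5 (150 to 240), 225 kb on chromosome 17 (180 to 280) and 200 kb on chromosome 18 (140 to 270) in the saline map, against 140 kb (130 to 140) on the other autosomes. In the morphine map it was 210 kb on chromosome 5 (170 to 240), 195 kb on chromosome 17 (140 to 240) and 190 kb on chromosome 18 (150 to 255), against 140 kb (130 to 140). Loops under 100 kb made up 27.1%, 19.4% and 27.8% of saline loops on chromosomes 5, 17 and 18, and 36.9% (35.5 to 38.2) on the other autosomes. The set is not alone in this: chromosome 12 had medians of 235 kb (saline) and 210 kb (morphine). Spans did not lengthen in 1 direction between the maps, since the median was higher in the morphine map on chromosome 5 and lower on chromosomes 17 and 18, with overlapping intervals in each case.

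Most loops of the set rested on few contacts, as did those elsewhere. The median number of observed contacts in the loop pixel was 18 on chromosomes 5 and 17 and 19 on chromosome 18 in the saline map, and 21, 19.5 and 21 in the morphine map. The medians of the other autosomes together were 19 and 24. The contacts expected from the surrounding donut of pixels were low as well. Their saline medians were 3.28 on chromosome 5, 3.22 on chromosome 17 and 3.85 on chromosome 18, against 4.20 (4.09 to 4.31) on the other autosomes. The morphine medians were 3.95, 4.27 and 4.28, against 6.38 (6.23 to 6.52). Enrichment, observed over donut-expected contacts, had medians above that of the other autosomes together. The saline medians were 5.28-fold on chromosome 5 (4.81 to 5.88), 5.13-fold on chromosome 17 (4.66 to 5.97) and 5.21-fold on chromosome 18 (4.47 to 5.81), against 4.57-fold (4.50 to 4.66). Those of the morphine map were 5.14-fold (4.74 to 5.65), 4.56-fold (4.04 to 5.04) and 4.80-fold (4.29 to 5.06), against 3.76-fold (3.71 to 3.82). All 3 morphine intervals lay above that of the other autosomes. In the saline map neither trait was particular to the set. Chromosome 8 had expected medians of 2.97 (saline) and 4.27 (morphine), and enrichment medians of 5.53- and 4.74-fold. Of the 17 other autosomes, 3, 5 and 4 had higher saline enrichment medians than chromosomes 5, 17 and 18. In the morphine map 0, 1 and 0 did.

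The deposited lists give 4 FDR values per loop, 1 for each local background, and the share of loops with all of them at or under 0.01 shows how many calls were strong. Over the whole series 46.8% of saline loops and 45.4% of morphine loops met this. On chromosome 5 the share was 53.6% (46.6 to 60.6) for saline and 54.0% (46.3 to 61.5) for morphine loops. On chromosome 17 it was 55.9% (45.2 to 66.2) and 50.0% (40.6 to 59.4), and on chromosome 18 48.1% (36.7 to 59.6) and 45.0% (35.4 to 54.8). The interval of chromosome 5 in the morphine map lay above the series share by a narrow margin, and the other 5 intervals covered it.

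Single loops show the range. On chromosome 5 the saline loop with the most contacts joined 106020001-106030000 to 106340001-106350000, with 50 contacts where 4.18 were expected, an enrichment of 12.0-fold (Poisson interval 8.88 to 15.8). The morphine loop with the most contacts there joined 7020001-7030000 to 7080001-7090000, with 97 contacts against 50.6 expected (1.92-fold, 1.56 to 2.34). So the saline leader was a strong focal contact, and the morphine leader was a modest one on a high background. The next 2 morphine loops of chromosome 5 had 95 contacts each and also lay in the first 10 Mb. One of them, between 8160001-8170000 and 8500001-8510000, was 16.6-fold enriched (13.5 to 20.4). The longest loop of chromosome 5 was found in both maps. It began at 80440001 and spanned 2220 kb with 13 contacts against 1.12 expected in the saline map, and 2210 kb with 10 contacts against 1.35 expected in the morphine map.

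Chromosome 17 held the loop with the most contacts of the set. It joined 2330001-2340000 to 2380001-2390000 in the morphine map, with 616 contacts (568 to 667) against 346 expected, an enrichment of 1.78-fold (1.64 to 1.93). Its counterpart in the saline map, called with 5 kb anchors from 2325001 and 2375001, had 37 contacts against 14.2 expected (2.61-fold, 1.84 to 3.60). The contacts differed 16.6-fold and the expected contacts were higher as well, and the enrichment was lower in the morphine map. The anchors differ in width here, which changes the number of contacts in a pixel. A second morphine loop 20 kb away, from 2350001 to 2410000, had 192 contacts against 79.4 expected (2.42-fold, 2.09 to 2.78). Both lie before the first domain of the chromosome, at 5000001. No other loop of chromosome 17 exceeded 88 contacts. In the saline map its 3 leading loops had 65, 55 and 47 contacts, and the first 2 lay past the last domain, from 94450001 and 95260001. The longest loop listed in both maps joined 90700001-90710000 to 92120001-92130000 over 1420 kb, with 11 saline contacts (11.9-fold, 5.96 to 21.4) and 15 morphine contacts (9.07-fold, 5.08 to 15.0).

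Chromosome 18 held 2 strong loops shared by the maps. The first joined 68330001-68340000 to 68680001-68690000, with 90 contacts against 6.36 expected in the saline map (14.2-fold, 11.4 to 17.4) and 224 against 15.1 in the morphine map (14.8-fold, 12.96 to 16.9). Contacts and background were both higher in the morphine map, and the enrichments differed by less than their intervals. The second spanned 1420 kb from 53880001-53890000 to 55300001-55310000, with 54 contacts against 2.20 expected in the saline map (24.5-fold, 18.4 to 32.0). In the morphine map the same first anchor was joined to 55310001-55320000 with 44 contacts against 2.86 expected (15.4-fold, 11.2 to 20.6). The 2 other saline loops of chromosome 18 that ranked as longest, at 1620 and 1230 kb, had 13 and 16 contacts. Some long morphine loops were enriched more strongly with few contacts. A loop of 1305 kb on chromosome 17 had 23 contacts against 0.406 expected (56.6-fold, 35.9 to 84.98), and one of 1065 kb on chromosome 18 had 15 against 0.146 (103-fold, 57.7 to 170.0), both with 5 kb anchors and no saline counterpart.

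Morphine over saline loop numbers were low on these chromosomes, and chromosome 5 had fewer loops in the morphine map. Chromosome 5 held 207 saline and 176 morphine loops, a ratio of 0.850 (0.691 to 1.04). Chromosome 17 held 93 and 116, a ratio of 1.25 (0.941 to 1.66), and chromosome 18 held 79 and 109, a ratio of 1.38 (1.02 to 1.87). The ratio over the other autosomes was 1.57 (1.51 to 1.62), and single autosomes ranged from 1.26 on chromosome 4 to 2.19 on chromosome 19. Chromosomes 5 and 17 were thus the lowest 2 autosomes, with the interval of chromosome 17 covering 1.57, while 4 other autosomes lay below chromosome 18. Only for chromosome 5 did the interval lie below that of the reference as well as below every other autosome's value. Among loops with 20 or more contacts the ratio of chromosome 5 was 1.18 (0.872 to 1.59), so the loops it had fewer of were those under 20 contacts. This limit also raised the ratios of chromosomes 17 and 18, to 1.45 (0.953 to 2.23) and 1.62 (1.06 to 2.51). On chromosome 18 the excess was in loops with 5 kb anchors, at 2.17 (1.30 to 3.73), against 1.05 (0.718 to 1.55) for 10 kb anchors. The other autosomes showed the same split, at 2.21 (2.09 to 2.33) and 1.201 (1.15 to 1.26).

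The local background moved with these ratios. Where a matched pair of loops had equal anchor widths, the median ratio of donut-expected contacts, morphine over saline, was 0.963 on chromosome 5 (0.875 to 1.21, 57 loops), 1.19 on chromosome 17 (1.00 to 1.51, 34 loops) and 1.31 on chromosome 18 (1.12 to 1.71, 34 loops). It was 1.74 on the other autosomes (1.69 to 1.80, 2116 loops), with single autosomes from 1.26 to 2.96. The same 2 chromosomes, 5 and 17, were lowest in both quantities. Across the 20 autosomes the background ratio followed coding genes per Mb with a Spearman coefficient of 0.854, and 0.809 without the 3 chromosomes. Its part in the loop numbers was not tested.

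**Figure D2:**
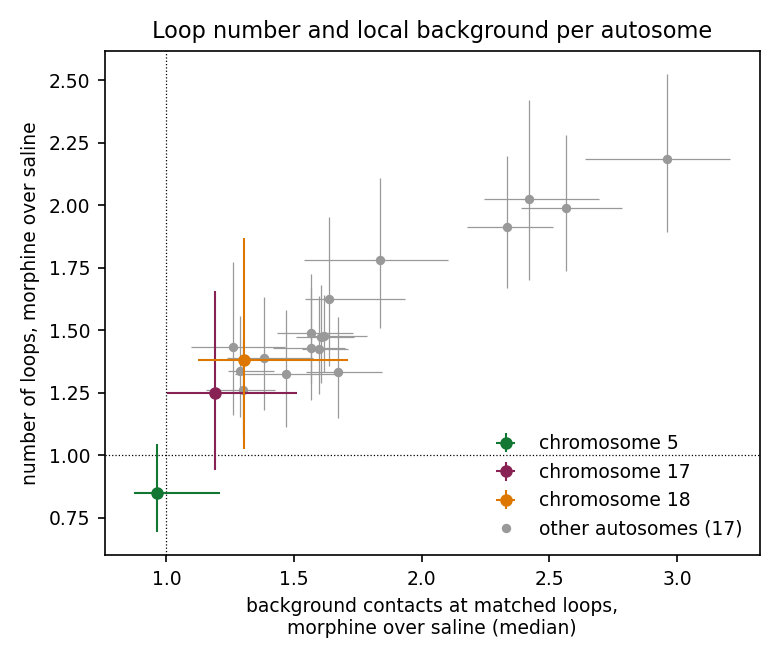
Ratio of loop numbers (vertical) against the median ratio of donut-expected contacts at matched loops (horizontal), morphine over saline, for each autosome; bars are 95% intervals and dotted lines mark equality. Chromosome 5 sits alone at 0.963 and 0.850, chromosomes 17 and 18 lie at the low end of the 17 other autosomes, and chromosomes 10, 16, 19 and 20 are highest on both axes. The order on the axes is not the same throughout: chromosome 11 lies at 1.67 and 1.33, and chromosome 12 at 1.26 and 1.43.

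Windows with fewer morphine than saline loops lay along most of chromosome 5, while its start held more. The windows in this comparison were chosen after their values were seen. In consecutive windows of 10 Mb, each taking the loops whose first anchor lies in it and counted where it held 5 or more loops over both maps, 12 of 19 windows of chromosome 5 held fewer morphine than saline loops (63.2%, 38.4 to 83.7). Over all autosomes 24.5% of windows did, and over the other autosomes 51 of 239 (21.3%, 16.3 to 27.1). The highest share among the other autosomes was 46.2%, on chromosome 12. On chromosome 17 it was 3 of 8 windows, and on chromosome 18 it was 1 of 7. The largest differences of this kind on chromosome 5 were from 15 to 5 loops between 60 and 70 Mb, from 9 to 1 between 130 and 140 Mb, and from 26 to 15 between 50 and 60 Mb.

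The first 10 Mb of chromosome 5 went the other way, from 17 saline to 44 morphine loops, a ratio of 2.59 (1.45 to 4.83). The median background ratio in that window was 2.35 over 12 matched loops, above the 1.74 of the other autosomes. Of its 17 saline loops, 15 had a counterpart in the morphine map. Without that window, chromosome 5 went from 190 to 132 loops, a ratio of 0.695 (0.552 to 0.872), with a background ratio of 0.882 (0.767 to 1.04) over 45 loops. Leaving out the window with the largest gain lowers the ratio by construction, so each other autosome was treated in the same way. Their ratios then ran from 1.20 on chromosome 4 to 2.18 on chromosome 19, and their background ratios from 1.24 to 3.05.

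On chromosome 17 the largest differences lay at its ends. The first window held 21 saline and 35 morphine loops and the last 10 and 21, with background ratios of 1.63 over 8 and 1.28 over 6 matched loops. The 8 windows between them held 62 saline and 60 morphine loops. Of these, windows 2, 3 and 4, counted from the start, held more morphine loops, with 11 and 13, 16 and 18, and 2 and 8. Windows 6, 8 and 9 held fewer, with 9 and 3, 10 and 6, and 11 and 9. Without the first window the chromosome had 72 and 81 loops, a ratio of 1.12 (0.809 to 1.57), and a background ratio of 1.03 (0.843 to 1.22). On chromosome 18 the difference was 9 loops both between 30 and 40 Mb, from 14 to 23, and between 60 and 70 Mb, from 12 to 21. Without the former the ratio was 1.32 (0.948 to 1.86) and the background ratio 1.30 (1.12 to 1.70), and without the latter they were 1.31 (0.945 to 1.83) and 1.31 (1.14 to 1.74). Both intervals of the loop ratio included equality.

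**Figure D3:**
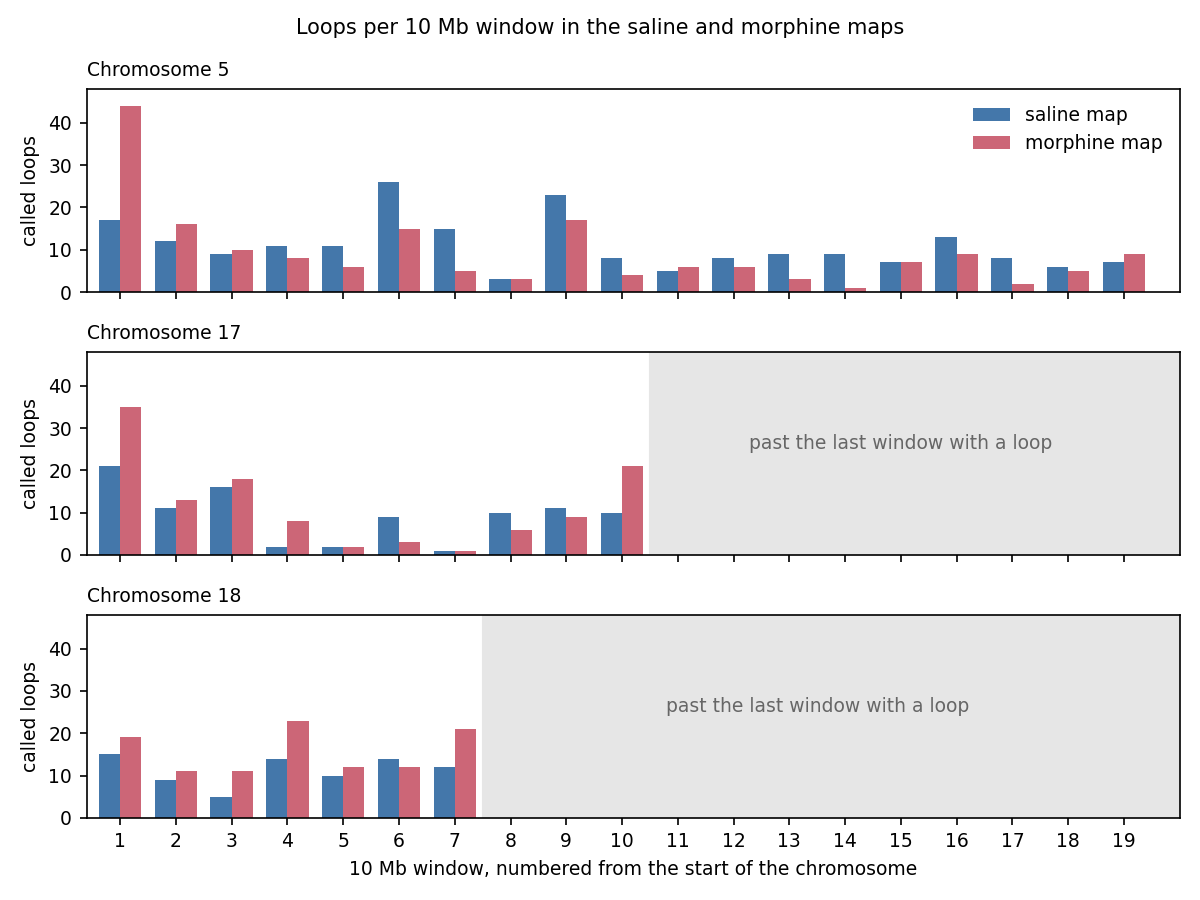
Number of called loops in consecutive 10 Mb windows of chromosomes 5, 17 and 18 (blue, saline map; red, morphine map). On chromosome 5 the first window goes from 17 to 44 loops while 12 of its 19 counted windows hold fewer in the morphine map; on chromosome 17 windows 1 to 4 and 10 hold more and windows 6, 8 and 9 fewer; on chromosome 18 only window 6, at 14 and 12 loops, holds fewer.

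Few saline loops of chromosome 5 were found again. A loop was matched when both anchors overlapped an anchor pair of the other map after an extension of 10 kb. Over the whole series 62.4% of saline loops and 40.8% of morphine loops were matched. On chromosome 5 it was 83 of 207 saline loops (40.1%, 33.4 to 47.1), below each of the 17 other autosomes, which ranged from 54.0% to 73.6%. Chromosome 17 had 55 of 93 (59.1%, 48.5 to 69.2) and chromosome 18 had 49 of 79 (62.0%, 50.4 to 72.7), within that range. Without its first 10 Mb, chromosome 5 had 35.8% (29.0 to 43.0). Chromosome 5 was also the one autosome with fewer morphine than saline loops, and the part of this in its matched share was not tested. Of the morphine loops, 47.2% of loops on chromosome 5 (39.6 to 54.8), 47.4% on chromosome 17 (38.1 to 56.9) and 45.0% on chromosome 18 (35.4 to 54.8) were matched. Chromosomes 5 and 17 lay just above the range of the other autosomes (30.6% to 47.0%), with intervals that reached into it, and chromosome 18 lay within it. The same 83 loop pairs of chromosome 5 are counted in both shares, which differ by the loop numbers of the maps.

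Unmatched loops had lower median enrichment in both maps. On chromosome 5 matched saline loops had a median enrichment of 6.45-fold (5.55 to 7.60) and unmatched ones 4.62-fold (4.37 to 5.28). On chromosome 17 the saline values were 5.72-fold (4.96 to 7.44) and 4.45-fold (4.21 to 5.11), and on chromosome 18 5.81-fold (5.08 to 6.67) and 3.88-fold (3.06 to 4.85). The other autosomes showed the same order, at 5.18-fold and 3.69-fold. On chromosomes 5 and 18 the saline intervals of the 2 classes did not overlap, and on chromosome 17 they did. The morphine medians of matched and unmatched loops were 5.85-fold (5.26 to 6.47) and 4.51-fold (3.95 to 5.06) on chromosome 5. They were 5.24-fold (4.47 to 6.08) and 4.04-fold (3.45 to 4.59) on chromosome 17, and 5.44-fold (4.90 to 6.44) and 4.07-fold (3.41 to 4.69) on chromosome 18.

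At reciprocal matches, enrichment differed little between the maps. The median ratio of enrichment, morphine over saline, was 0.951 on chromosome 5 (0.813 to 1.06, 83 loops), 0.923 on chromosome 17 (0.758 to 1.07, 55 loops) and 1.00 on chromosome 18 (0.849 to 1.05, 49 loops). On the other autosomes it was 0.894 (0.880 to 0.908). Over the series 60.9% of matched loops were less enriched in the morphine map, and the share was 57.8% (46.5 to 68.6), 58.2% (44.1 to 71.3) and 49.0% (34.4 to 63.7) on the 3 chromosomes. Each of these intervals covered the series value. The matched loops with the most contacts on chromosome 5 were again in its first 10 Mb. The loop from 6940001 to 7330000 went from 32 to 85 contacts while its enrichment was 5.25-fold (3.59 to 7.41) and 5.77-fold (4.61 to 7.13). The loop from 8160001 to 8510000 went from 20 to 95 contacts, at 13.2-fold (8.05 to 20.3) and 16.6-fold (13.5 to 20.4). On chromosome 18 the loop with 5 kb anchors from 37520001 and 37570001 went from 30 to 120 contacts, at 5.08-fold (3.43 to 7.25) and 7.05-fold (5.85 to 8.43). In these 3 loops the contacts were at least 2.66 times as many in the morphine map, and the enrichment intervals of the maps overlapped.

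The authors' differential lists, whose selection rule the sources used here do not state, hold 3.69% of saline and 7.09% of morphine loops of the series. On chromosome 5 they hold 13 of 207 saline loops (6.28%, 3.39 to 10.5) and 6 of 176 morphine loops (3.41%, 1.26 to 7.27). That is the highest saline and the lowest morphine share of the 20 autosomes, with intervals that covered the series values. Among loops with all 4 FDR values at or under 0.01 the order turned, at 2.70% (0.561 to 7.70) and 3.16% (0.656 to 8.95). Chromosome 17 had 3 saline and 6 morphine loops in these lists, and chromosome 18 had 2 and 9. None of the 39 had a counterpart in the other map, which over the whole series 7 of 203 saline (3.45%) and 10 of 597 morphine differential loops (1.68%) had. Most were short: the median span was 80 kb for the 13 saline loops of chromosome 5 and 110 kb for the 9 morphine loops of chromosome 18. Each of the 13 saline loops of chromosome 5 had both anchors in the same domain, as had 88.4% of all saline loops of that chromosome. The contacts of the 13 loops ran from 11 to 32 and their enrichment from 2.20- to 15.1-fold, with a median of 3.91-fold.

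The differential loops with the highest enrichment differed in strength between the chromosomes. On chromosome 5 the second saline loop, from 112500001 to 113040000, had 13 contacts (9.10-fold, 4.85 to 15.6), and the third, from 162070001 to 162400000, had 20 (7.45-fold, 4.55 to 11.5). On the morphine side of chromosome 5, the loop from 185860001 to 186670000 had 12 contacts (10.03-fold, 5.18 to 17.5), and the one from 12180001 to 12880000, whose anchors lie in different domains, had 22 (6.96-fold, 4.36 to 10.5). On chromosome 17 the morphine loop from 1620001 to 2380000 had 14 contacts against 0.371 expected. Its second anchor, 2370001-2380000, adjoins the second anchor of the 616-contact loop described above. The 3 saline loops of chromosome 17 were 4.41-fold enriched or less. On chromosome 18 the morphine loop from 21020001 to 21320000 had 9 contacts (6.20-fold, 2.83 to 11.8), and both saline loops stood at 2.69-fold or less. With 9 to 43 contacts each, these loops have wide intervals.

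Domains of the set were as long as elsewhere. The saline medians were 2.18 Mb on chromosome 5 (2.00 to 2.72), 1.74 Mb on chromosome 17 (1.24 to 2.48) and 2.32 Mb on chromosome 18 (1.96 to 2.96), against 2.00 Mb (1.88 to 2.12) on the other autosomes. The morphine medians were 2.00, 1.80 and 2.24 Mb, against 1.96 Mb. Chromosome 5 had 72 saline and 85 morphine domains, a ratio of 1.18 (0.852 to 1.64). That was the highest ratio of the autosomes and its interval included equality, while chromosomes 17 (40 and 41) and 18 (25 and 26) had 1 more domain each in the morphine map. The longest saline domain of chromosome 5, from 128640001 to 136760000, was 8.12 Mb long, and neither of its ends had a morphine boundary within 40 kb. It held 1 loop. Chromosome 5 also held the shortest domain of the set, 80 kb from 88360001 to 88440000 in the morphine map. Both of its ends carry the same score, 0.407, and whether it is a domain of its own was not tested. On chromosome 17 the 2 longest saline domains, of 6.08 and 5.92 Mb, had no matched end, and no morphine domain exceeded 4.96 Mb. On chromosome 18 the longest saline domain, from 25880001 to 30720000, held no loop. Of 2 morphine domains that tied at 5 Mb, that from 25720001 to 30720000 held none either, and that from 62840001 to 67840000 held 14.

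Boundaries were poorly shared between the maps on these chromosomes. Over the series 54.0% of saline boundaries and 52.0% of morphine boundaries had one of the other map within 40 kb. In the saline map it was 33 of 73 on chromosome 5 (45.2%, 33.5 to 57.3), 14 of 41 on chromosome 17 (34.1%, 20.1 to 50.6) and 11 of 26 on chromosome 18 (42.3%, 23.4 to 63.1). In the morphine map it was 38.4% (28.1 to 49.5), 33.3% (19.6 to 49.5) and 40.7% (22.4 to 61.2). Chromosome 17 was lowest of the 20 autosomes in both maps, and its intervals lay below the series shares. The interval of chromosome 5 lay below the series share in the morphine map only, and those of chromosome 18 covered it. Chromosome 8 of the other autosomes had 43.9% in the saline map, below chromosome 5, and 39.7% in the morphine map, below chromosome 18. A tolerance of 80 kb raised the shares to 73.1% and 70.4% on chromosome 18, to 60.3% and 51.2% on chromosome 5 and to 51.2% and 50.0% on chromosome 17. A wider tolerance can only raise a share, and the boundary shares of the other autosomes at 80 kb are not given here.

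The strongest boundaries differed in how well they were shared. The highest score of the set, on a scale the files do not define, was at 83200001-83240000 on chromosome 5, with scores of 3.61 (saline) and 3.24 (morphine), in the same bin. On chromosome 18 the strongest boundary was at 43880001-43920000 (saline, 2.14) and 43800001-43840000 (morphine, 1.87), and the second at 34600001-34640000 (1.43) and 34680001-34720000 (1.42). Each pair lies 80 kb apart. On chromosome 17 the strongest saline boundary, at 73160001-73200000 with a score of 1.61, and the strongest morphine boundary, at 41800001-41840000 with 1.94, had no boundary of the other map nearer than 120 kb. The second strongest morphine boundary of chromosome 17, at 56760001-56800000 with 1.74, was in the same bin in the saline map (1.41). The second strongest of chromosome 5, at 186920001-186960000 (saline, 2.10) and 4400001-4440000 (morphine, 2.34), were 80 kb from the nearest boundary of the other map. Median scores were 0.681, 0.581 and 0.729 in the saline map on chromosomes 5, 17 and 18, and that of chromosome 17 was the lowest of the autosomes (0.440 to 0.731), with an interval that covered the reference median of 0.691.

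At a tolerance of 40 kb, few domains kept both ends. Over the series 31.4% of saline and 30.4% of morphine domains had both ends matched. On chromosome 17 it was 3 of 40 saline domains (7.50%, 1.57 to 20.4) and 5 of 41 morphine domains (12.2%, 4.08 to 26.2), the lowest shares of the autosomes. Chromosome 18 had 4 of 25 (16%, 4.54 to 36.1) and 4 of 26, and chromosome 5 had 16 of 72 (22.2%, 13.3 to 33.6) and 13 of 85 (15.3%, 8.40 to 24.7). Among the other autosomes chromosome 8 was close to these, with 14 of 65 (21.5%) and 11 of 72 (15.3%). A tolerance of 80 kb ended this for chromosome 18, at 14 of 25 (56.0%) and 14 of 26 (53.8%), against 54.9% and 52.4% on the other autosomes. Chromosome 5 then had 36.1% (25.1 to 48.3) and 25.9% (16.99 to 36.5), and chromosome 17 had 20% (9.05 to 35.6) and 19.5% (8.82 to 34.9). A saline domain counts as split when it keeps both ends and a morphine boundary lies more than 40 kb inside it, and a morphine domain counts as merged in the reverse case. Over the series 6.91% of such saline domains were split and 7.41% of such morphine domains were merged. Chromosome 5 had 3 split and 0 merged domains, chromosome 17 had 0 split and 2 merged, and chromosome 18 had none of either.

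The split domains of chromosome 5 were 3.52 to 4.44 Mb long and nearly empty of loops. The domain from 98720001 to 102240000 held no saline loop and gained a morphine boundary at 101360001-101400000 with a score of 0.761. Its neighbour from 102280001 to 106560000 held 1 saline loop and gained 2 boundaries, at 102600001 with a score of 0.704 and at 103960001 with 0.446. The third, from 69880001 to 74320000, held no saline loop. The merged domains of chromosome 17 ran from 5000001 to 7760000, with 10 morphine and 6 saline loops inside, and from 13440001 to 16440000, with 2 and 2. The saline boundaries missing there had scores of 0.419 and 0.417, below the chromosome median. No loop of the map with the inner boundary crossed it. Few could have done so, since that map held 1 loop in each split domain and 6 and 2 in the merged ones.

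Loops of chromosome 17 often lay outside every domain. Over the series 88.7% of saline and 84.8% of morphine loops had both anchors in 1 domain of the same map. On chromosome 17 it was 69 of 93 (74.2%, 64.1 to 82.7) and 75 of 116 (64.7%, 55.2 to 73.3), the lowest shares of the 20 autosomes. On chromosome 5 it was 88.4% (83.2 to 92.4) and 75.6% (68.5 to 81.7), and on chromosome 18 87.3% (78.0 to 93.8) and 83.5% (75.2 to 89.9). The lists of chromosome 17 begin at 5040001 and 5000001 and end at 92840000 and 92760000, and 15 of 93 saline loops (16.1%, 9.32 to 25.2) and 27 of 116 morphine loops (23.3%, 15.9 to 32.0) lay wholly beyond them. The other autosomes had at most 7.83% and 12.1% of such loops. Among loops that reach the listed domains, 88.46% (79.2 to 94.6) and 84.3% (75.02 to 91.1) of those on chromosome 17 lay inside 1 domain, against 92.1% and 90.5% on the other autosomes together. The lowest single values among those were 88.48% on chromosome 20 (saline) and 86.1% on chromosome 8 (morphine), just above chromosome 17 and within its intervals. No loop of the set lay outside domains anywhere but at the chromosome ends.

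Leaving out loops beyond the domain lists also bears on the loop numbers. Chromosome 5 then held 200 saline and 158 morphine loops, a ratio of 0.790 (0.637 to 0.978). Chromosome 17 held 78 and 89 (1.14, 0.832 to 1.57), and chromosome 18 held 72 and 98 (1.36, 0.994 to 1.87). The other autosomes ranged from 1.25 to 2.08. In chromosome 5, morphine loops that reach the domains were inside 1 domain less often than saline loops, at 84.2% (77.5 to 89.5) against 91.5% (86.7 to 94.97), with overlapping intervals.

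Many domains of the set held no loop at all. Over the series 19.9% of saline and 21.1% of morphine domains were without a loop. Chromosome 17 had 15 of 40 saline domains (37.5%, 22.7 to 54.2) and 14 of 41 morphine domains (34.1%, 20.1 to 50.6) of this kind. Chromosome 5 went from 19 of 72 (26.4%, 16.7 to 38.1) to 35 of 85 (41.2%, 30.6 to 52.4), the highest share of the autosomes in that map and above the series share with its whole interval. Chromosome 18 went from 6 of 25 (24.0%, 9.36 to 45.1) to 4 of 26 (15.4%, 4.36 to 34.9). With loops at or under 0.01 in all 4 FDR values alone, the shares turned to higher in the morphine map on chromosome 18 (36% and 46.2%) and on chromosome 17 (42.5% and 58.5%), and on chromosome 5 they were 36.1% and 51.8%. In the saline map all 3 lay above the other 17 autosomes, whose highest share was 23.1%, on chromosome 8, though the intervals of chromosomes 5 and 18 covered the series share. Counted as length, the domains without a loop took 25.4%, 36.5% and 24.3% of the domain length in the saline map and 34.9%, 31.3% and 16.2% in the morphine map, against 14.6% and 15.5% on the other autosomes.

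Long stretches held no loop anchor. The longest on chromosome 17 ran from 31815001 to 44585000 in the saline map, 12.8 Mb, and from 45150001 to 57110000 in the morphine map, 12.0 Mb. They did not overlap, so 4 morphine loops had an anchor inside the first and 5 saline loops inside the second. The second longest stretch of chromosome 17 was in nearly the same place in both maps. It ran from 60900001 to 71270000 (saline, 10.4 Mb) and from 61280001 to 71210000 (morphine, 9.93 Mb). Chromosome 5 had 10.8 Mb from 66810001 to 77635000 in the saline map and 9.63 Mb from 26420001 to 36050000 in the morphine map. The split domain from 69880001 to 74320000 lies in the former. So does nearly all of the second longest morphine stretch of chromosome 5, from 70300001 to 77640000 (7.34 Mb). The longest stretch of chromosome 18 was in nearly the same place in both maps, from 24760001 to 30890000 (6.13 Mb) and from 25225001 to 31080000 (5.86 Mb), and covers its longest saline domain. On the other autosomes the longest stretch reached 9.61 Mb (saline) and 10.3 Mb (morphine), with medians of 6.11 and 7.15 Mb.

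**Figure D4:**
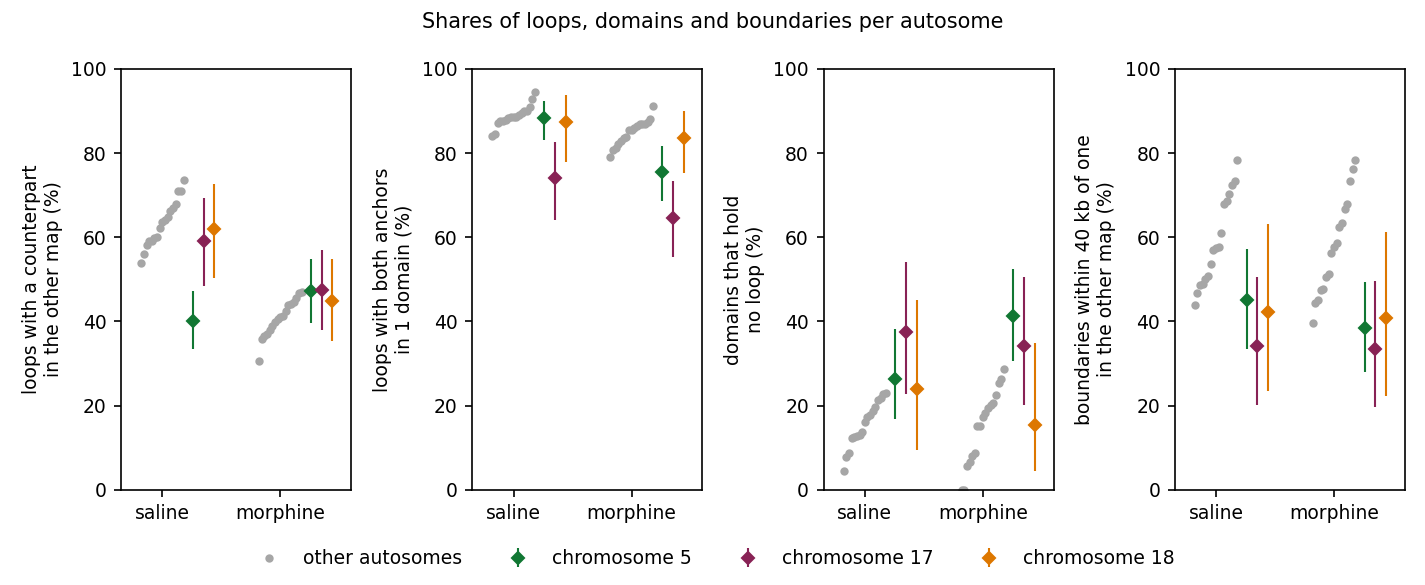
Share of loops with a counterpart in the other map, of loops with both anchors in 1 domain, of domains that hold no loop, and of boundaries within 40 kb of one in the other map, for the saline and morphine maps; grey points are the 17 other autosomes in ascending order, diamonds are chromosomes 5, 17 and 18 with 95% Clopper-Pearson intervals. Chromosome 5 is apart in matched saline loops (40.1%), and chromosome 17 in loops inside 1 domain (74.2% and 64.7%) and in matched boundaries (34.1% and 33.3%).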

How the data were processed

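The 5 Hi-C libraries are represented by 6 deposited lists, 3 per group, each read as 1 pooled map. The loop lists, per the file headers, follow the column layout of the HiCCUPS caller. They give whole, unnormalized contact counts, and the deposited signal expected from 4 local backgrounds. The authors' FDR columns (q-values) have maxima of 0.499 (saline) and 0.500 (morphine). The number of merged pixels was not used. The deposited domain lists give 40 kb bins and a boundary score of unstated scale. Positions on chromosome 17 run past the end of that chromosome in hg19, the build given in the submitters' processing notes. Aligner and callers are not given in the sources used here.

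Density is the number of all loops of a chromosome, also those beyond the domain lists, per Mb between the first and last domain of either map. Matching, reciprocal matches, boundaries, splits and 10 Mb windows were computed as stated with the results, with Python 3.11.15, pandas 2.3.3 and scipy 1.17.1, and tested on simulated lists. Medians carry order-statistic intervals, shares Clopper-Pearson, ratios of counts conditional binomial, and counts and single enrichments Poisson intervals, which leave the error of the expected contacts out. No test was run, since each group has 1 map. Loops and domains were named by rank: contacts, span, matched contacts, enrichment in the differential lists, domain length and boundary score. The members, the rule and the alternatives were chosen with earlier results of these data known. Windows, the chromosomes without their window of largest gain, and loops beyond the domain lists were added after values were seen.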

Additional observations from a re-analysis of the deposited data

How the results depend on the processing

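Each of 83 results was recomputed under the alternatives that apply to it, 222 values in all, of which 28 were added after values were seen. No ratio whose interval excluded 1 changed to the other side of 1, 153 values stayed within the interval of the value reported and 69 did not. The interval of the loop ratio of chromosome 18 excluded 1 with all loops and included it under the FDR limit, with 10 kb anchors, without either window of largest gain and without loops beyond the domain lists. That of chromosome 5 included 1 except without its window of largest gain and without loops beyond the domain lists. With all 4 FDR values at or under 0.01, densities fell on chromosomes 5, 17 and 18 to 0.608, 0.592 and 0.581 loops per Mb (saline) and 0.520, 0.660 and 0.750 (morphine), since fewer loops were counted, and median enrichments were 6.90-, 6.74- and 6.48-fold (saline) and 6.01-, 5.64- and 5.89-fold (morphine). Under that limit the differential share was 2.70% on chromosome 5, 0% on chromosome 17 (which allows up to 3 of the loops counted) and 0% on chromosome 18 in the saline map, and 1.72% on chromosome 17 in the morphine map. Matched shares were 60.3% on chromosome 17 (morphine) and 78.9% on chromosome 18 (saline), loops inside 1 domain 84.2% on chromosome 5 (morphine), and domains without a loop 58.5% and 46.2% on chromosomes 17 and 18 (morphine). With the horizontal background the enrichments were 4.79-, 4.53- and 4.11-fold (saline) and 4.50-, 3.88- and 4.09-fold (morphine). With the vertical background they were 4.68- and 4.36-fold on chromosomes 5 and 17 (saline) and 4.41-, 3.95- and 4.00-fold (morphine), the background ratio of chromosome 5 was 0.864, and the lower left background gave 4.23-fold on chromosome 18 (morphine). Anchors of 5 kb alone gave spans of 130 and 142 kb on chromosomes 5 and 17 (saline), 120 and 130 kb (morphine), and a loop ratio of 2.17 on chromosome 18. Loops with 20 or more contacts gave a loop ratio of 1.18 on chromosome 5, on the other side of 1. Without extension of anchors the matched shares were 25.1%, 35.5% and 26.6% (saline) and 29.5%, 28.4% and 19.3% (morphine). Boundaries matched in the same bin made up 19.2% and 15.4% on chromosomes 5 and 18 (saline) and 16.3% and 14.8% (morphine). A tolerance of 80 kb gave 60.3%, 51.2% and 73.1% (saline) and 51.2%, 50.0% and 70.4% (morphine). Splits of chromosome 5 numbered 1 at 20 kb and 5 at 80 kb, and chromosome 17 had 2 splits at 80 kb. Chromosome 5 had 1 merged domain at 80 kb and chromosome 17 had 1 at 20 kb. Without loops beyond the domain lists, loops inside 1 domain made up 88.5% and 95.8% on chromosomes 17 and 18 (saline) and 84.2%, 84.3% and 92.9% (morphine). Placed on the domains of the other map, 81.6% of saline loops of chromosome 5 lay inside 1 domain. Without chromosomes 10, 16, 19 and 20 the other autosomes had a loop ratio of 1.44 and a background ratio of 1.56. Beyond fewer loops, contacts or domains being counted, the cause of these moves was not tested. No paired analysis was possible because each group has 1 pooled list and no column carries a replicate number.

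Most loops rest on few contacts, and 1 map per group leaves the spread between monkeys unknown. Depth per library was not used here, and the maps differ in contacts. A difference between the chromosomes of a map is a description of that map.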

Other observations

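Anchor regions used by several loops made up a small share on the 3 chromosomes and elsewhere. When overlapping anchors were joined into anchor regions, 4 of 373 regions on chromosome 5 were used by 3 or more loop ends in the saline map (1.07%, 0.293 to 2.72) and 8 of 307 in the morphine map (2.61%, 1.13 to 5.07). Chromosome 17 had 2 of 172 and 3 of 196, and chromosome 18 had 2 of 137 and 2 of 194. No region of the set was used by more than 4 ends, while the other autosomes reached 6 ends in the morphine map. On those autosomes the share was 1.01% (0.816 to 1.24) in the saline and 2.51% (2.25 to 2.79) in the morphine map. The share was higher in the morphine map on chromosomes 5 and 17 and on the other autosomes, and lower on chromosome 18, with intervals that overlapped on each of the 3 chromosomes.

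Enrichment was higher for longer loops in the set, as elsewhere. Over the 3 chromosomes the saline medians were 3.71-fold for loops under 100 kb (3.22 to 4.35), 4.86-fold from 100 to under 200 kb (4.42 to 5.88), 5.53-fold from 200 to under 400 kb (4.96 to 6.40) and 7.00-fold from 400 kb to under 1 Mb (5.84 to 7.85). At matched spans the saline medians of the other autosomes were 3.36-, 4.49-, 5.39- and 6.38-fold. In the morphine map the medians of the set were 3.70-, 4.58-, 5.00- and 5.85-fold, and those of the other autosomes 2.96-, 3.77-, 4.47- and 5.05-fold. In the morphine map each of the 3 chromosomes had a higher median than the other autosomes in all 4 classes. Among saline loops that held for chromosome 5 only. Chromosome 17 was lower from 100 to under 200 kb (4.404-fold) and from 400 kb to under 1 Mb (5.57-fold), and chromosome 18 was lower under 100 kb (3.10-fold) and from 200 to under 400 kb (5.34-fold). The pooled intervals of the set lay above the medians of the other autosomes in all 4 morphine classes and covered them in the saline map. The morphine result depended on the reference. Without chromosomes 10, 16, 19 and 20 the morphine medians of the other autosomes were 3.11-, 3.91-, 4.80- and 5.26-fold. The pooled intervals lay above these under 200 kb and covered them from 200 kb to under 1 Mb. From 400 kb to under 1 Mb, chromosomes 17 (5.22-fold) and 18 (5.10-fold) were then lower than that reference. The 13 saline loops of 1 Mb or more had a median of 6.48-fold (5.36 to 11.6), against 8.90-fold on the other autosomes. The order was the reverse for the 12 morphine loops of that length, at 8.22-fold (4.84 to 15.4) against 7.05-fold.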
